A study of Homo sapiens with 93 samples.

Results

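The genes described here encode 10 enzymes that write or erase methyl groups on lysine 36 of histone H3 (H3K36). The 5 methyltransferase genes are SETD2, NSD1, NSD2, NSD3 and ASH1L, and the 5 demethylase genes are KDM2A, KDM2B, KDM4A, KDM4B and KDM4C. They were picked by their Ensembl identifiers from a list whose rule uses no measured value, although the list was drawn up with earlier results of these data known, and all 10 were present among the 14000 features counted. The study measured H3K36me3, the trimethylated form, by CUT&Tag, in which an antibody guides a transposase to marked chromatin and the DNA it cuts is sequenced. The material was human B cells made immortal with Epstein-Barr virus, known as lymphoblastoid cell lines, of which 93 were assayed with 1 library each. The lines were grown in medium holding 20% serum, in 4 culture batches of about 20 to 35 lines, and 100000 cells per assay were frozen and taken through 14 PCR cycles. All libraries belong to 1 group with no treated, mutant or control arm, and the labels do not place a line in a batch, so line, culture batch and assay differences cannot be told apart.

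H3K36me3 is deposited over the bodies of transcribed genes. SETD2 travels with elongating RNA polymerase II and adds the third methyl group, while the NSD enzymes and ASH1L make the mono- and dimethylated forms. KDM2A and KDM2B remove mono- and dimethylation and bind unmethylated CpG dinucleotides through a CXXC zinc finger, and the KDM4 enzymes act on the trimethylated and dimethylated forms of both H3K36 and H3K9. The values below are the amount of the mark on the genes that encode these enzymes. They are not amounts of enzyme, of RNA or of enzyme activity.

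Library totals ran from 2842955 to 24325746 counts, with a median of 14883653. The identifiers of the other features could not be paired with gene symbols (0 of 14000 matched the reference table), so B cell markers, markers of other cell types, other H3K36 enzymes, SETD2 partners and histone H3.3 genes were not analysed here. Levels are CPM, counts scaled to a common library total. A difference in cell number, or in the mark on all features alike, would be scaled away and cannot be seen in them. Error terms are standard deviations (SD) over the 93 lines and include any technical spread, because no line was assayed again.

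The regulatory DNA at the starts of these genes differed in composition. The 250 bases before 1 transcript start listed by RefSeq (GRCh38.p14) are shown for 4 genes that recur in the results: SETD2 and ASH1L, whose marks had the highest r of the 45 pairs, KDM4A, whose mark passed the test with none of the other 9, and KDM4C, whose residual level had a negative r with that of SETD2. For SETD2, ASH1L and KDM4C that start is not the outer end of the gene span given further on, and their windows lie inside their spans. The KDM4A window ends at 43650148, next to its span, which starts at 43650149. Each sequence reads 5′ to 3′ on the strand of the gene, and capitals mark CG dinucleotides. The SETD2 window is chr3:47164114-47164363 on the minus strand, ASH1L chr1:155562804-155563053 on the minus strand, KDM4A chr1:43649899-43650148 on the plus strand and KDM4C chr9:6757723-6757972 on the plus strand.
SETD2: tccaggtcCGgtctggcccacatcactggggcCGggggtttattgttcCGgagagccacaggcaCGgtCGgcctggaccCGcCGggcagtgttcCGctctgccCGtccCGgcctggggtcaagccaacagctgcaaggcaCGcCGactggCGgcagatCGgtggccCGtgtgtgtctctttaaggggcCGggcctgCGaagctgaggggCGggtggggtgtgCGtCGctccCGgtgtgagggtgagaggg
ASH1L: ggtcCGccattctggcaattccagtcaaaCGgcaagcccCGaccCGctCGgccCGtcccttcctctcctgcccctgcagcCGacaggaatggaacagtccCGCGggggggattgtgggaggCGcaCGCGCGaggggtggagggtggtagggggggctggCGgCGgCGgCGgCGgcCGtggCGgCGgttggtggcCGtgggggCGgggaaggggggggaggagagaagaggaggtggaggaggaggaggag
KDM4A: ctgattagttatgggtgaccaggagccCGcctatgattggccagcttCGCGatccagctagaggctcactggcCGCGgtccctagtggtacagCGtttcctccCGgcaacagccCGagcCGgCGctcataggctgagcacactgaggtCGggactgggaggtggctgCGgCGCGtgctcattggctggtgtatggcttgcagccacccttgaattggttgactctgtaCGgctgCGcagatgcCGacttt
KDM4C: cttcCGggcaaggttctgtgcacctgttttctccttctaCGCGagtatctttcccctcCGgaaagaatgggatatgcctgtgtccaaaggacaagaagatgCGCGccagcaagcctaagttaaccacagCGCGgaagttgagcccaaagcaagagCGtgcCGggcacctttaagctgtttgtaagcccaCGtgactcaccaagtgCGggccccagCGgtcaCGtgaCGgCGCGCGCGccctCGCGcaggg
SETD2 had 21 CG dinucleotides and ASH1L had 23, against 17 in KDM4A and 21 in KDM4C, and the median of all 35116 windows was 11. At least as many as SETD2 or KDM4C were found in 30.2% of all windows, at least as many as ASH1L in 25.8% and at least as many as KDM4A in 39%. SETD2 and KDM4C had the same CG count. GC content was 69.6% for SETD2 and 72.8% for ASH1L, against 61.2% for KDM4A and 59.2% for KDM4C, and the median window had 58%. The most CG-rich of the 9 windows searched was that of NSD2, with 50, a count reached by 0.148% of all windows. KDM2A followed with 40, reached by 2.16%. The GC box GGGCGG was present on either strand in 5 of the 9 windows (SETD2, NSD1, NSD2, ASH1L and KDM4B), against 42.6% of all windows, and the E box CACGTG in 3 (NSD1, KDM4B and KDM4C), against 6.34%. The TATA box TATAAA was in 0 of the 9 and in 10.7% of all windows. For NSD1, KDM2B and KDM2A, 5, 4 and 2 windows were listed, and only 1 of each was searched. These letter matches are a description of the windows.

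Every methyltransferase gene carried at least 3090 reads in the median library. SETD2, the trimethylating enzyme (ENSG00000181555.20, chromosome 3, 47016436 to 47164840), had 255 CPM in the lowest line, 362 CPM in the median line and 556 CPM in the highest. Its raw count was 1252 in the lowest library, 4887 in the median and 10156 in the highest. SETD2 varied most of the 5 methyltransferase genes, with a coefficient of variation (CV) of 18.4%. NSD1 (ENSG00000165671.20, chromosome 5, 177131798 to 177300213), a dimethylating enzyme mutated in Sotos syndrome, had 358, 505 and 750.2 CPM in the lowest, median and highest lines. NSD2 (chromosome 4, 1871393 to 1982192), the enzyme activated by a translocation in some multiple myelomas, had 348, 461 and 598 CPM. It had the smallest fold range of the 10 genes, 1.72 from the lowest to the highest line, and a CV of 11.5%. NSD3 (chromosome 8, 38269704 to 38382271), the third member of the family, had 159, 223 and 328 CPM. ASH1L (chromosome 1, 155335268 to 155563202), a Trithorax-group enzyme, had 426, 564 and 745 CPM.

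The demethylase genes held both the most variable and some of the least variable members. KDM2A (ENSG00000173120.15, chromosome 11, 67119263 to 67258082) had 234 CPM in the lowest line, 511 CPM in the median and 778 CPM in the highest, a 3.32-fold range and the widest of the 10 genes. Its CV was 23.3%. KDM2B (chromosome 12, 121408461 to 121582279), its paralog and a subunit of a variant Polycomb complex, had 250.1, 347 and 440.4 CPM in the lowest, median and highest lines. The paralogs thus differed in spread, the CV of KDM2B being 12.2%. KDM4A (chromosome 1, 43650149 to 43705518) had 173, 273 and 367 CPM, and KDM4B (chromosome 19, 4969113 to 5153598) had 258, 409.6 and 545 CPM. KDM4C (chromosome 9, 6720863 to 7175648) had 339, 439 and 816 CPM. The next highest line had 556 CPM. Each of the 10 genes held more counts than the median feature in each of the 93 lines, and all 10 belonged to the top quintile of 2783 features by CPM. These ranks are not per length, and these are long genes, with spans of 55.4 to 455 kb.

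**Figure D1:**
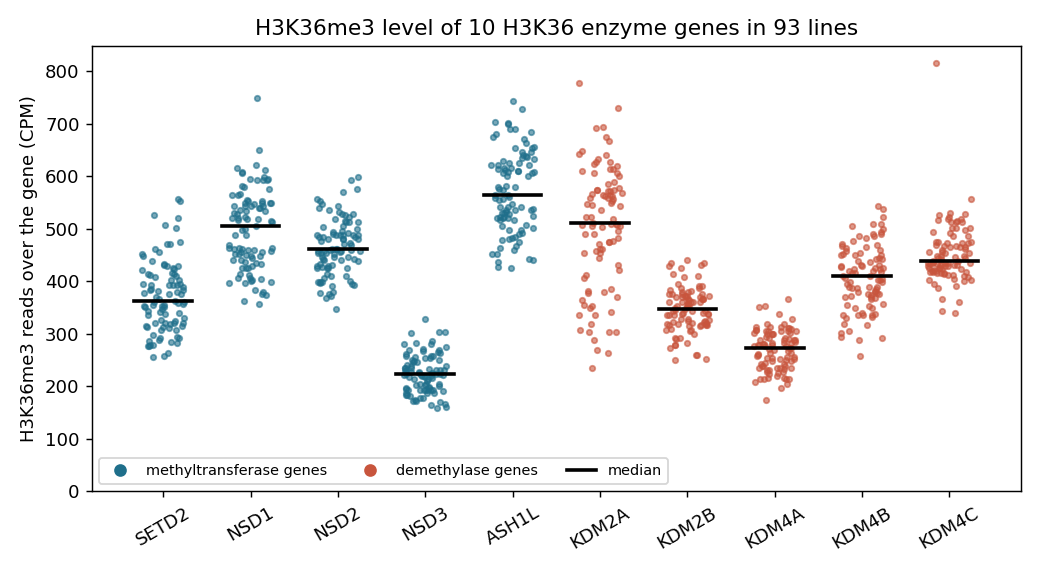
H3K36me3 level in CPM (vertical axis) of the 5 methyltransferase genes and the 5 demethylase genes, with 1 point per line (93 lines) and a bar at the median. KDM2A spreads from 234 to 778 CPM, and the highest value for KDM4C is 816 CPM.

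Per kilobase of RefSeq span the order of the genes changed, and the highest and lowest positions were both taken by KDM4 genes. KDM4A, the shortest at 55.4 kb, had the highest density, 4.87 ± 0.692 CPM per kb (SD, n = 93), followed by NSD2 at 4.21 ± 0.483, KDM2A at 3.62 ± 0.844, NSD1 at 2.96 ± 0.454 and SETD2 at 2.51 ± 0.460 CPM per kb. ASH1L had a density of 2.50 ± 0.338, KDM4B 2.21 ± 0.333, KDM2B 1.99 ± 0.243 and NSD3 1.99 ± 0.324 CPM per kb. KDM4C, the longest at 455 kb, had the lowest density, 0.994 ± 0.126 CPM per kb. Of the 9 steps between neighbours in this order, 3 exceeded the SD of the paired difference over lines. KDM4A was above NSD2 by 0.21 ± 0.20 log2 CPM per kb and higher in 79 of 93 lines. NSD1 was above SETD2 by 0.25 ± 0.14 log2, in 91 lines, and NSD3 was above KDM4C by 0.99 ± 0.28 log2, in all 93. The other 6 steps, among them SETD2 and ASH1L at -0.01 ± 0.14 log2, stayed within that spread. The densities are not adjusted for the blocks of the table described below. Against the whole table, the medians of the blocks that hold these genes ran from -0.55 log2 CPM (KDM2B and KDM4B) to 0.37 (SETD2, NSD1, NSD2, NSD3 and KDM4C). The sources used here do not give the interval the authors counted, so the span stands in for its length. CUT&Tag reads carry no strand, and reads of overlapping genes cannot be told apart. Other RefSeq genes overlapped 18.1% of the KDM4A span (an uncharacterised locus and the antisense gene KDM4A-AS1), 10.7% of KDM2A (uncharacterised loci) and 10.2% of KDM2B (chiefly RNF34), against 0% to 3.504% of the other 7.

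The mark on KDM2A varied more between lines than the trend for features of like count, and the dispersion of the other 9 genes lay below that trend. Variation was tested on the counts by goodness of fit in edgeR, from the deviance of each feature, given library total and dynamic range, with Benjamini-Hochberg adjustment over 13915 features. Dynamic range is the distance in log2 CPM between the median of the top and of the bottom quintile of features in a library, and ran from 4.17 to 4.99. KDM2A was called at an adjusted p of 0.00843 by this edgeR test, with a biological coefficient of variation of 19.5% against 15.9% for the trend. That is 1 of 10 genes, beside 18.6% of all features and 19.3% of the top quintile. The log2 ratios of own to trended dispersion ran from -1.81 for ASH1L to -0.74 for SETD2 in the other 9, with adjusted p of 1. The median ratio was -1.12 for the 10 genes, against -0.71 for the top quintile and -0.55 for all features. The median CV was 14.6% for the 10 genes, against 16.9% for the top quintile and 20.5% for all features.

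The KDM2A spread coincided with a feature of the count table. In the rows after 1900 up to 3200 a downward step was placed separately in each library, between row 2017 and row 3047, and KDM2A lies at row 2548. The search always returned a step and allowed only a fall, so whether each library has such a step was not tested. The step was located in each library from rows other than KDM2A and the 10 on either side. In the 20 libraries whose step came before KDM2A, the gene had 234 CPM in the lowest, 336 in the median and 386 in the highest. In the 70 libraries whose step came after it, KDM2A had 407, 558 and 778 CPM. The 2 sets did not overlap, and they differed by -0.76 log2 CPM (permutation test, two-sided, p = 1e-05, the smallest that 100000 permutations can give). The split was drawn from rows of the same libraries, and KDM2A follows the rows around it (r = 0.885, given below). The p is therefore not that of an independent test, and how other features separate by this split was not counted. Within either set the SD was 0.20 log2 CPM, against 0.37 over all lines. The remaining 3 libraries, with the step inside the rows left out, had 370, 445 and 619 CPM. All 20 rows within 10 of KDM2A were lower in the same 20 libraries. Dynamic range had a median of 4.39 in those 20, against 4.54 in the 70, and the median library total was 12861700, against 15746179. With the side of the step as a term in the edgeR test, the KDM2A dispersion ratio was -1.12 and the adjusted p was 1. The KDM2A slopes and pairs below are therefore given with and without that term, which was chosen after the data had been seen. The neighbour, component and follower values of KDM2A are given without it.

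**Figure D2:**
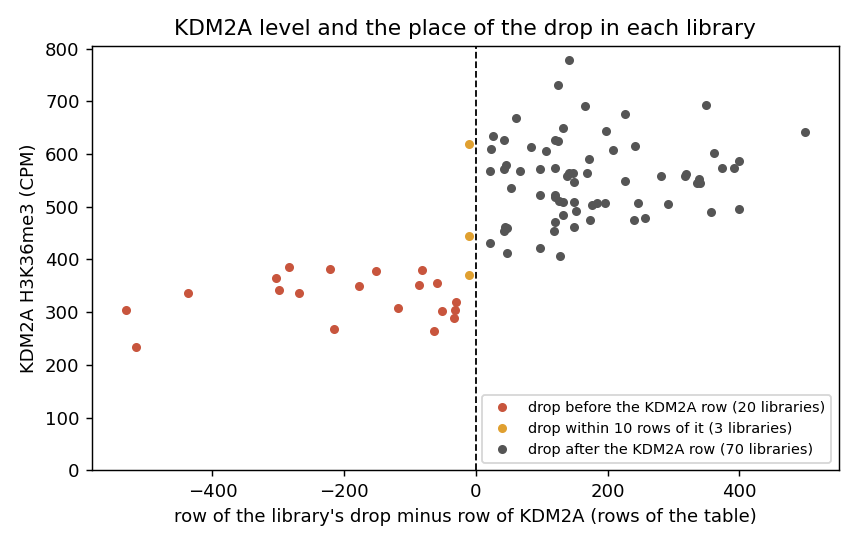
KDM2A H3K36me3 level in CPM (vertical axis) against the row at which the downward step was placed in each library, counted from the KDM2A row (horizontal axis, dashed line at KDM2A), with 1 point per library. The 20 libraries with the step before KDM2A lie at or below 386 CPM, and the 70 with the step after it lie at or above 407 CPM.

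KDM2A was also the member closest to its neighbours in the table. The correlation between the residual level of a gene, given library total and dynamic range, and the mean residual of the 20 rows on each side was r = 0.885 for KDM2A, the 99.3 percentile of all features. It was 0.496 for ASH1L, 0.450 for KDM4B, 0.397 for KDM4A and 0.374 for KDM4C, with a median of 0.265 over all features. For SETD2 it was 0.144 and for NSD3 -0.0144. The members' rows followed their chromosomes, sorted as text. KDM4A and ASH1L (chromosome 1) lay at rows 451 and 991, KDM2A (chromosome 11) at 2548 and KDM2B (chromosome 12) at 3588. KDM4B (chromosome 19) lay at 6768, SETD2 (chromosome 3) at 9742 and NSD2 (chromosome 4) at 10374. NSD1 (chromosome 5) lay at 11445, NSD3 (chromosome 8) at 13093 and KDM4C (chromosome 9) at 13463. Whether neighbouring rows are also neighbours on the chromosome was not tested for other features. The table also has blocks of different typical level: the first 1900 rows, with KDM4A and ASH1L, had a median level 0.34 higher on the log2 CPM scale than the table as a whole, and the last block, with SETD2, NSD1, NSD2, NSD3 and KDM4C, lay 0.37 above it. The stretch after row 1900 up to 3200, with KDM2A, lay at -0.21 and the block after it, with KDM2B and KDM4B, at -0.55. Against its own block, SETD2 stood 2.75 log2 CPM above the median, against 3.12 over the whole table, and KDM4B 3.81, against 3.26.

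In libraries with a wider dynamic range the mark was higher on 9 of the 10 genes. The limma slope of log2 CPM on dynamic range, given library total, was positive at adjusted p under 0.05 for all 5 methyltransferase genes and for KDM2A, KDM2B, KDM4A and KDM4B. The background is high: 40.3% of all features rose and 38.3% fell, and in the top quintile, from which the measure is built, 60.7% rose and 22.6% fell. For SETD2 the slope was 0.83 log2 CPM per unit (95% interval 0.57 to 1.08, limma adjusted p = 1.01e-08). The other methyltransferase slopes were close to one another, between 0.68 for ASH1L and 0.80 for NSD1. KDM2A had the steepest slope, 1.52 (1.13 to 1.91), which was 0.57 with the side of the step as a term. KDM2B, at 0.38 (0.15 to 0.61), and KDM4B, at 0.37 (0.13 to 0.60), were the shallowest of the 9, and with that term their slopes were 0.14 each with limma adjusted p of 0.323 and 0.341. KDM4C did not pass, at -0.14 (-0.35 to 0.06, adjusted p = 0.2). The median slope of the 10 genes was 0.71, against 0.45 in the top quintile and 0.06 over all features.

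Depth divided the genes. Log2 library total and dynamic range were themselves correlated over the 93 libraries (r = -0.497), so the slope on either depends on the other being in the fit. At a given dynamic range, the limma slope on log2 library total was negative for SETD2 (-0.09 log2 CPM per doubling, adjusted p = 0.00323), NSD1 (-0.07), NSD3 (-0.09), ASH1L (-0.07) and KDM4C (-0.11). It was positive for NSD2 (0.10), KDM2B (0.09), KDM4A (0.15) and KDM4B (0.21, adjusted p = 4.66e-12), and for KDM2A it was 0.08 (adjusted p = 0.079). With the side of the step as a term the KDM2A slope turned to -0.0743 and passed (limma adjusted p = 0.00703), and KDM2B no longer passed (0.0472, adjusted p = 0.0997). NSD2 thus differed in sign from the other 4 methyltransferase genes, and KDM4C from the 3 other demethylase genes that passed. Across all features 27% rose and 40.6% fell with depth, and in the top quintile 27.4% and 44.8%. In the 46 libraries of lower depth 4 of the 10 genes passed (NSD2, KDM2B, KDM4A and KDM4B), and in the 47 of higher depth 2 (KDM2A at 0.53 with limma adjusted p = 0.0101, and KDM4B at 0.46), against 9 in all 93. None of the 5 negative slopes passed in either set, and for SETD2 and NSD3 the slope was 0.0548 and 0.0167 in the deeper one. Without the 10 shallowest libraries SETD2 and NSD1 did not pass (limma adjusted p = 0.17 and 0.0527).

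**Figure D3:**
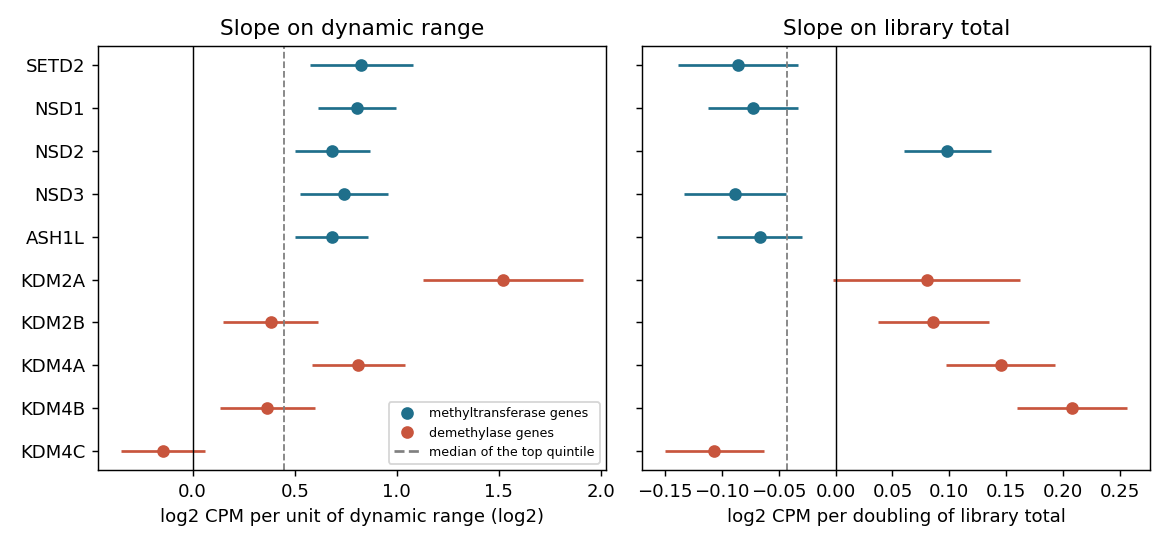
Limma slopes of log2 CPM for the 10 genes (points, with 95% intervals) on dynamic range (left, per log2 unit) and on library total (right, per doubling), over 93 libraries. On dynamic range 9 genes lie above 0 and KDM4C does not; on library total SETD2, NSD1, NSD3, ASH1L and KDM4C lie below 0. The dashed line is the median of the top quintile of features.

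Given library total and dynamic range, most of the methyltransferase genes rose and fell together from line to line. Pairs were tested with limma, as the slope of 1 gene on the level of another given library total and dynamic range, with Benjamini-Hochberg adjustment over all 13914 other features, and a pair was called when it passed at 0.05 both ways. Of the 10 methyltransferase pairs, 9 were called and all were positive, with a median correlation of residuals of 0.54 (range 0.21 to 0.68). Of the 25 pairs of a methyltransferase and a demethylase gene, 7 were positive and 3 negative, with a median of 0.09. Of the 10 demethylase pairs, 3 were positive and 1 negative, with a median of 0.07. The role of the enzyme and the block of the table were not separated. SETD2, NSD1, NSD2 and NSD3 lie in the last block, with KDM4C, and ASH1L lies in the first, with KDM4A. The 3 positive demethylase pairs were those among KDM2A, KDM2B and KDM4B, which lie in the blocks of lower median between these. The median over all pairs of the 13915 features was 0.0056, with 5% below -0.348 and 5% above 0.382, and over pairs of the top quintile it was 0.0298, with 5% below -0.412 and 5% above 0.486. All these correlations share the libraries and their covariates.

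SETD2 and ASH1L, on different chromosomes, had the highest r of the 45 pairs. Their residual levels had Pearson r = 0.68 and Spearman rho = 0.78 (n = 93, permutation p = 1e-05 for each, the smallest possible; limma adjusted p = 2.73e-10), and r was 0.71 without the 2 lines farthest out in SETD2. With 5 principal components as covariates r was 0.31 and the pair did not pass (limma adjusted p = 0.108). Among all feature pairs 0.322% had a higher r, and among top-quintile pairs 0.973%. Before the covariates were taken out, r was 0.859. The level of SETD2 was also followed upward by 26.3% of all features and downward by 23.4%, and that of ASH1L by 22.6% and 13.7%, so a call with SETD2 is common. In the top quintile, to which all 10 genes belong, the share that followed upward was 39.9% for SETD2, 37.5% for ASH1L, 35.7% for NSD1, 37.3% for NSD3 and 23.8% for NSD2. Among the demethylase genes it was 44.2% for KDM2A, 29% for KDM2B, 18.8% for KDM4B, 7.87% for KDM4C and 0% for KDM4A.

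NSD1 and NSD3 came next among the methyltransferase genes. They had r = 0.63 and rho = 0.63 (permutation p = 1e-05 each; limma adjusted p = 1.03e-08). SETD2 and NSD1 had r = 0.63 and rho = 0.69 (limma adjusted p = 5.90e-09), and NSD1 and ASH1L had r = 0.60 and rho = 0.61 (limma adjusted p = 9.80e-08). The level of NSD1 was followed upward by 20.1% of all features and downward by 11.3%, and that of NSD3 by 24.8% and 20.4%. NSD2 was the loosest of the 5. Its r was 0.49 with NSD1 (limma adjusted p = 0.000128), 0.35 with NSD3 (adjusted p = 0.00976) and 0.31 with SETD2 (adjusted p = 0.0253). The last 2 calls were lost with the side of the step as a term (limma adjusted p = 0.163 and 0.252), with the deposited scores (0.163 and 0.228) and in each depth set, and the call with NSD1 was lost in each depth set (0.132 and 0.22). With ASH1L it was 0.21, which did not pass (limma adjusted p = 0.173). The level of NSD2 was followed upward by 12.8% of features and downward by 2.84%. In 38 of the 93 lines all 5 methyltransferase residuals lay on the same side of 0, above it in 18 lines and below it in 20.

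**Figure D4:**
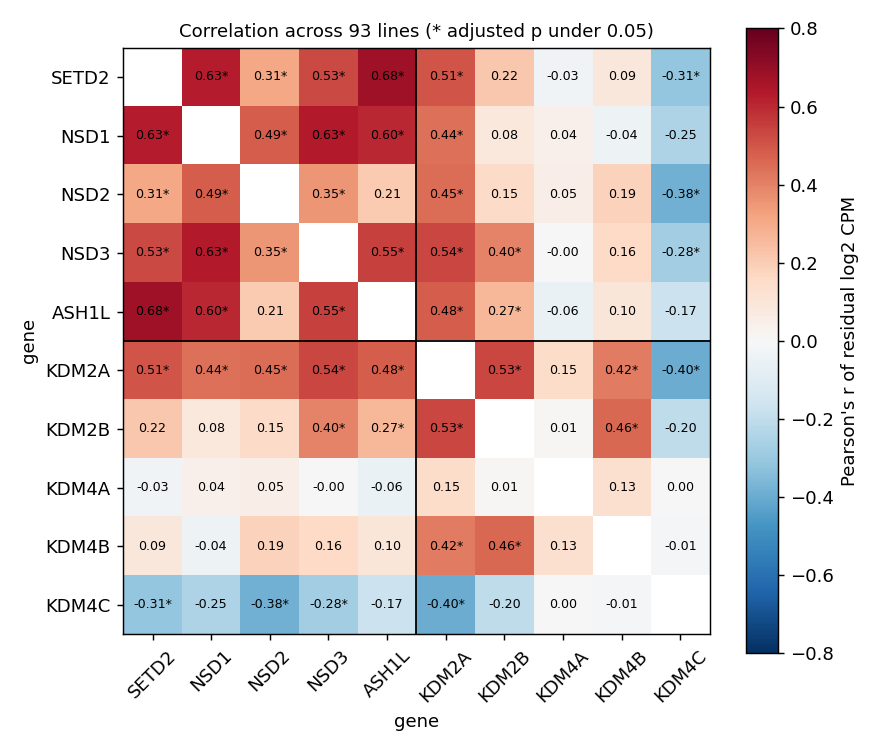
Pearson's r of residual log2 CPM over 93 lines for the 45 pairs of the 10 genes, methyltransferase genes first and demethylase genes after the black line, with a star where limma's adjusted p was under 0.05. The methyltransferase block is positive throughout (0.21 to 0.68), the KDM4A row lies near 0, and the KDM4C row is mostly negative.

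The demethylase genes did not share 1 pattern. KDM2A was called with 7 genes upward: NSD3 (r = 0.54), KDM2B (0.53), SETD2 (0.51), ASH1L (0.48), NSD2 (0.45), NSD1 (0.44) and KDM4B (0.42). With the side of the step as a term, r was 0.53 with ASH1L, 0.50 with NSD3, 0.50 with SETD2, 0.45 with KDM2B and 0.35 with NSD1. NSD2 and KDM4B then no longer passed (r = 0.26 and 0.24, limma adjusted p = 0.159 and 0.113). Without that term, none of the 7 pairs passed in the 47 deeper libraries. Their r there ran from 0.17 with KDM4B to 0.42 with NSD2, and their limma adjusted p from 0.0644 to 0.514. With 5 or 10 principal components none of them passed either. The share of all features called with KDM2A was 5.33% in the deeper libraries, and 2.21% and 0.496% with 5 and 10 components. KDM2A had the most followers of the 10 genes, with 31.8% of features upward and 25.1% downward. KDM2B was called with KDM4B (r = 0.46, rho = 0.39, limma adjusted p = 0.000212), with NSD3 (r = 0.40, adjusted p = 0.000631) and with ASH1L (r = 0.27, rho = 0.20, adjusted p = 0.0356), the last of which did not pass with the side of the step as a term (adjusted p = 0.177). In the 47 deeper libraries KDM2B kept its call with KDM4B (r = 0.50, limma adjusted p = 0.0214). Its calls with NSD3 and ASH1L were lost there (r = 0.11 and -0.07, limma adjusted p = 0.694 and 0.892). The level of KDM2B was followed upward by 23.9% of features and downward by 25.7%, and that of KDM4B by 15.3% and 16.3%.

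In residual level, KDM4C had a negative r with 8 of the other 9 genes (-0.01 with KDM4B), and 4 of these passed: KDM2A (r = -0.40, limma adjusted p = 0.00353), NSD2 (-0.38, adjusted p = 0.00681), SETD2 (-0.31, adjusted p = 0.0263) and NSD3 (-0.28, adjusted p = 0.0453). The level of KDM4C was followed upward by 6.57% of features and downward by 12.4%. Without the line highest for KDM4C, r was -0.36 with KDM2A, -0.39 with NSD2, -0.32 with SETD2 and -0.28 with NSD3, and the last no longer passed (limma adjusted p = 0.0605). Before the covariates were taken out, r with KDM4C was 0.000212 for SETD2, 0.0644 for NSD1, 0.0463 for NSD3 and 0.101 for ASH1L, against -0.40 for NSD2 and -0.27 for KDM2A. Without the 10 shallowest libraries the pairs with SETD2, NSD3 and KDM2A did not pass (limma adjusted p = 0.148, 0.135 and 0.0645). The NSD2 pair did (adjusted p = 0.00625). With the deposited scores SETD2 and NSD3 did not pass (0.131 and 0.176), and KDM2A and NSD2 did (0.0291 and 0.0148). None of the 4 passed in the 47 deeper libraries (limma adjusted p from 0.0611 to 0.898). Among the 46 shallower ones KDM2A and SETD2 passed (0.00479 and 0.0238), and NSD2 and NSD3 did not (0.349 and 0.133). With the side of the step as a term none of the 4 passed, and r was -0.14 with KDM2A, -0.28 with NSD2, -0.22 with SETD2 and -0.17 with NSD3. KDM4A stood apart in another way, with r between -0.06 and 0.15 with the other 9 genes. Its level was followed by 0% of features upward and 0% downward, the lowest limma adjusted p being 0.108, although 1390 of 13914 features (9.99%) had an unadjusted p under 0.05. These values are for residuals, and KDM4A passed for both library total and dynamic range above.

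**Figure D5:**
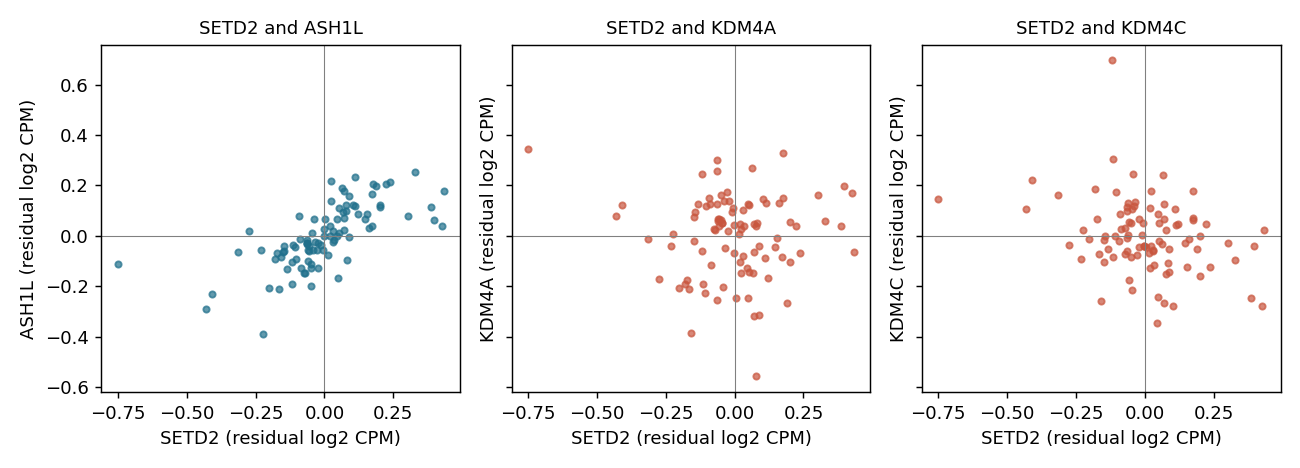
Residual log2 CPM of SETD2 (horizontal axis) against that of ASH1L, KDM4A and KDM4C (vertical axes), with 1 point per line (93 lines), after library total and dynamic range were taken out. ASH1L rises with SETD2 (r = 0.68), KDM4A did not pass (r = -0.03) and KDM4C falls (r = -0.31).

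The pairs weakened once wider patterns of the table were taken out. The first principal component of the residuals held 16.1% of their variance and correlated with KDM2A at 0.75, KDM2B at 0.68, SETD2 at 0.58, NSD3 at 0.51 and KDM4C at -0.38. NSD1 correlated more with the second component (7.21% of the variance) than with the first, at 0.59 and 0.28. With 5 principal components in place of library total and dynamic range, the median r of the methyltransferase pairs was 0.29 and 2 of 10 were called, NSD1 with NSD2 (r = 0.43, limma adjusted p = 0.0233) and NSD1 with ASH1L (r = 0.41, adjusted p = 0.0462). With 10 components the median was 0.25 and 2 were called, SETD2 with ASH1L (r = 0.46, adjusted p = 0.0252) and NSD1 with ASH1L (r = 0.49, adjusted p = 0.0176). The share of all features that followed a methyltransferase gene, up or down, fell as well. Given library total and dynamic range it ran from 15.7% (NSD2) to 49.7% (SETD2). It ran from 0.374% (NSD1) to 6.86% (NSD2) with 5 components, and from 0% (NSD3) to 5.4% (NSD2) with 10. The r of SETD2 with ASH1L, given library total and dynamic range in a fit of each depth set, was 0.62 among the 46 shallower libraries, and 0.69 among the 47 deeper ones, and it passed in each (limma adjusted p = 0.000818 and 0.003).

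None of the features most like a member, by r of residuals over the 93 lines, was another of the 10 genes. For KDM2A the nearest 3 (r = 0.887, 0.854 and 0.834) lay 1, 2 and 7 rows further on, the first being ENSG00000173020.11. For SETD2 the most similar feature (r = 0.805) lay 1397 rows away and for NSD1 (r = 0.814) 10502 rows away. The highest r was 0.776 for NSD2, 0.734 for NSD3 and 0.792 for ASH1L, and 0.803 for KDM2B and 0.785 for KDM4B. KDM4C reached 0.514 and KDM4A 0.409, the lowest of the 10 genes.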

How the data were processed

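H3K36me3 CUT&Tag libraries of 93 lines, 1 per line and 1 group, were analysed. The authors' deposited count table holds whole numbers of reads per feature, 14000 in all. The authors' deposited scores for the same features have identical sorted values in every library (-3.92 to 3.92) and served as an alternative. The submitters' processing notes name HISAT2 2.2.1, bedtools and hg38 without giving them a role. The sources used here do not give the interval counted, the read filters or how the scores were made.

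Counts were scaled with TMM (edgeR 4.0.16) and turned into log2 CPM with a prior count of 2. Tests used the 13915 features that reached 10 counts in 47 or more libraries, and all 10 members passed. Overdispersion was tested with edgeR and slopes and pairs with limma 3.58.1, two-sided, with dynamic range and log2 library total as terms and Benjamini-Hochberg adjustment at 0.05 over all features. Residual correlations used 100000 permutations. The scripts were tested on simulated data. R 4.3.3 and Python 3.11.15 were used.

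The members and lists were chosen with earlier results of these data known. Named are all 10 members, the called pairs and the 3 features most like each member, with at most 2 identifiers printed. Alternatives, each run for the results it applies to, were size factors from DESeq2 1.42.0, its dispersion outliers (variable calls only), a prior count of 0.5 (slopes and pairs), other count filters, subsets of libraries and rows, other covariates (variable calls and pairs) and the scores (dynamic range and pairs). A term for the side of the step at KDM2A and leaving out the line highest for KDM4C were added after seeing the data. Gene symbols come from the member list; spans, overlaps and promoters are from RefSeq on GRCh38.p14, matched by symbol, and the gene NSD3 has no sequence searched here. PCR reads are not independent molecules, so counting precision is not given; deeper libraries give less error.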

Additional observations from a re-analysis of the deposited data

How the results depend on the processing

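The number of genes that rose with dynamic range was 9 in all 93 libraries and 7 to 9 under the alternatives. The number that followed depth, 9, was 4 among the 46 libraries of lower depth, 2 among the 47 of higher depth, and 7 to 10 under the others. KDM2A, the 1 gene called variable, kept its call in 7 alternatives. The count was 0 in the 47 deeper libraries, without the rows after 1900 up to 3200 (which hold KDM2A), with 5 or 10 principal components, with the side of the step as a term and by DESeq2's dispersion outliers, which called 255 features in all, against 2587. Pairs called were 23 of 45. They were 6 in the deeper libraries, 15 of 36 without those rows, 2 with 5 and 2 with 10 components, 14 with the side of the step as a term, and 16 to 30 otherwise. The share of all features called with a member moved too. For SETD2 it was 49.7% in all 93 libraries, 13.7% in the deeper ones and 72.4% with no covariates. With 5 and 10 components it was 4.87% and 0.223%. For KDM2A the same shares were 56.9%, 5.33%, 75.8%, 2.21% and 0.496%, in that order. Of the 23 pairs, r turned to -0.0658 for ASH1L and KDM2B in the deeper libraries. With no covariates r was 0.000212 for SETD2 and KDM4C and 0.0463 for NSD3 and KDM4C. With 5 components r was -0.029 for SETD2 and KDM2A. With 10 it was 0.0125 for SETD2 and KDM4C, -0.0145 for ASH1L and KDM2A and 0.0229 for KDM2A and KDM4C. The depth slope turned to 0.0548 for SETD2 and 0.0167 for NSD3 in the deeper libraries, and to -0.0743 for KDM2A with the side of the step as a term. The causes were not tested. A subset of the lines leaves fewer samples in each fit. No paired analysis was possible because each line has 1 library and all form 1 group. The deposited scores gave 9 genes following dynamic range and 16 pairs.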
